A study of Rattus norvegicus with 36 samples.

Results

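In rat germ cells, 346 genomic regions changed in DNA methylation both at the beginning and at the end of spermatid development, which allowed the youngest spermatids (R1-8) to be set beside spermatozoa at the same coordinates. A region was taken when its chromosome, start and end were identical in the authors' list of regions that differed between R1-8 and R9-12 spermatids and in their list for R15-17 spermatids and spermatozoa. The regions were thus chosen by their measured differences at both of these steps. The first list gave the R1-8 level, the second the spermatozoa level, and spermatozoa minus R1-8 was called the net difference. The 346 regions were 9.3% of the 3722 regions of the first list and 20.5% of the 1691 regions of the last. They belonged to 9449 distinct regions of the 4 spermatid lists and to 60036 distinct regions of all 7 lists. Of the 9449 spermatid regions, 39.4% were in the first list and 17.9% in the last.

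The series holds 36 samples, 4 at each of 9 stages, and the 5 stages used most here were spermatids labelled R1-8, R9-12, R13-14 and R15-17, and spermatozoa. All came from untreated transgenic rats of the Sprague-Dawley strain, with the genotype GFP-GCS, in which a germ cell-specific green fluorescent protein serves for sorting by fluorescence. Levels of GD16, GD18 and GD20 gonocytes and of PND5 spermatogonia, from the same strain and genotype, are given where the fetal and neonatal lists hold the same region. Ages of the adult animals are not given in the labels, nor do these say whether the 4 samples of each stage stem from different animals. DNA of sorted cells was extracted with the QIAamp DNA micro kit and DNA of spermatozoa with the DNeasy Blood & Tissue kit, so that kit and stage cannot be told apart in the last comparison or in the net difference.

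Spermiogenesis turns a round haploid spermatid into a spermatozoon without cell division or DNA replication, while histones give way to protamines and the nucleus condenses. Methylation of cytosine in CpG dinucleotides, as a rule high outside CpG-rich promoters in germ cells of the male, is laid down in fetal and perinatal life. With no replication in spermatids, methylation is not diluted by replication at these stages, and other ways of change were not tested. Bisulfite sequencing after capture with the Agilent rat Methyl-Seq panel reads the share of methylated cytosines in captured regions, and does not separate methylcytosine from hydroxymethylcytosine.

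Every level below is the authors' stage mean over the CpGs of a region, a deposited fraction written as a percentage. A level per sample was not analysed here, so values carry no SD and no n, the depth is unknown, and the net difference has no test. Both steps, from R1-8 to R9-12 and from R15-17 to spermatozoa, chose the regions, and each had to reach 10 percentage points (points below) with an adjusted p of at most 0.05 in the authors' deposited table. In the authors' deposited table the adjusted p of the 346 regions ran from 9.36e-15 to 0.0494 at the first step and from 9.24e-17 to 0.0499 at the last. The smallest steps were 10 points for gains and 10.1 points for losses, and within 0.5 points of the limit lay 8 gains and 5 losses of the first step and 10 gains and 8 losses of the last. Regions just outside this limit are not listed and were not analysed here. Expression was not measured, so the germ cell identity could not be checked on transcripts.

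The promoters of 3 genes are shown as RefSeq gives them, to set their CpG content beside that of the measured regions. App, Abhd14a and Fermt1 each hold a member region that the authors' annotation places in the promoter, and they differ in level and in CpG content. Each line gives 300 bases from RefSeq (build GRCr8), 250 before to 50 after the gene start, 5′ to 3′ on the gene's strand, with every CG dinucleotide in capitals. The windows are chr11:37722789-37723088 (minus strand) for App, chr8:115965648-115965947 (minus strand) for Abhd14a and chr3:140666370-140666669 (minus strand) for Fermt1. Member coordinates elsewhere in the text are those of the authors' lists, whose genome build no source used here gives, so the place of the measured region relative to the window is unknown for App and Abhd14a. The Fermt1 region has more CpGs (5) than its window holds (2), so it does not lie wholly inside it.
App: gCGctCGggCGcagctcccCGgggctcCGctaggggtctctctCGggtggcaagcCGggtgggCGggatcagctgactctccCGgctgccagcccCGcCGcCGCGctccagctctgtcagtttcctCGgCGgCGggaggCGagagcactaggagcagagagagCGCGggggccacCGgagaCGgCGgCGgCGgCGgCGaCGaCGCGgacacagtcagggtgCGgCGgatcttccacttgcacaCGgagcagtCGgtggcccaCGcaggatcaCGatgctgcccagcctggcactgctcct
Abhd14a: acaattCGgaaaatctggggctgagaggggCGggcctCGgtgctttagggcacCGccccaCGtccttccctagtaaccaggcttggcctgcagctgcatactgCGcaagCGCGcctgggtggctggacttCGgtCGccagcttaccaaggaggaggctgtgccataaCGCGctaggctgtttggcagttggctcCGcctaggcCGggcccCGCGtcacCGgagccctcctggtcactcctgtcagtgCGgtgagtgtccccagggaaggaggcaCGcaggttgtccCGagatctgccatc
Fermt1: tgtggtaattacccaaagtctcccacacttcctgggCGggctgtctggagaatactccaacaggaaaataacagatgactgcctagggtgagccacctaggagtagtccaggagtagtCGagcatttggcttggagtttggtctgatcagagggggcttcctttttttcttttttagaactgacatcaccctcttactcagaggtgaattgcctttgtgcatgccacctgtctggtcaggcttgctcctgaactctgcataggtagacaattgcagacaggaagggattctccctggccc

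The motif searched was CG, which reads the same on both strands. The App window held 35, the Abhd14a window 20 and the Fermt1 window 2, against a median of 7 over 33469 rat promoters of the same length, of which 94.5% held at least 1. As many or fewer were found in 94.6%, 77.4% and 22.3% of promoters, respectively. App, the precursor of amyloid beta, was methylated at 14.7% in R1-8 spermatids, 28.0% in R9-12, 19.4% in R15-17 and 30.4% in spermatozoa, in a 189 bp region with 6 CpGs (chr11:24642583-24642771). Abhd14a, an alpha/beta hydrolase, was at 2.2% in R1-8, 23.0% in R9-12, 0.9% in R13-14, 1.7% in R15-17 and 13.4% in spermatozoa, over 5 CpGs (chr8:115149534-115149569). Fermt1, a kindlin that activates integrins in epithelia, was instead near full methylation, at 95.5%, 80.6%, 86.4%, 97.8% and 83.7% in the same order, over 5 CpGs (chr3:125608493-125608630). The density in the measured regions was not that of the windows: 3.17 against 11.67 CpGs per 100 bp in App, 13.89 against 6.67 in Abhd14a and 3.62 against 0.67 in Fermt1. Windows of the other 3 promoters with a symbol held 18 (Rabepk), 9 (Pheta2) and 8 (Krt72), and the CpG number did not order the 6 promoters by level, since Krt72 was at 3.6% in R1-8 and App at 14.7%.

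In most of the 346 regions spermatozoa were within 10 points of R1-8 spermatids. This was not particular to R1-8, since 53.2% were within 10 points of R9-12, and 56.5% of 239 regions within 10 points of R13-14. The median net difference was 5.0 points, with the middle of the regions between -2.7 and 10.9 points and extremes of -28.9 and 31.3. Spermatozoa were higher in 228 regions, lower in 116 and equal in 2. The limit was set at 10 points, the smallest difference in the 2 lists that chose the regions. With it, 100 regions (28.9%) had a net gain and 39 (11.3%) a net loss. The other 207 (59.8%) returned to within 10 points of the R1-8 level. The median level was 31.55% in R1-8, 42.05% in R9-12, 29.3% in R15-17 and 36.0% in spermatozoa. At R13-14 it was 27.9%, over the 239 regions that a list with this stage holds.

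**Figure D1:**
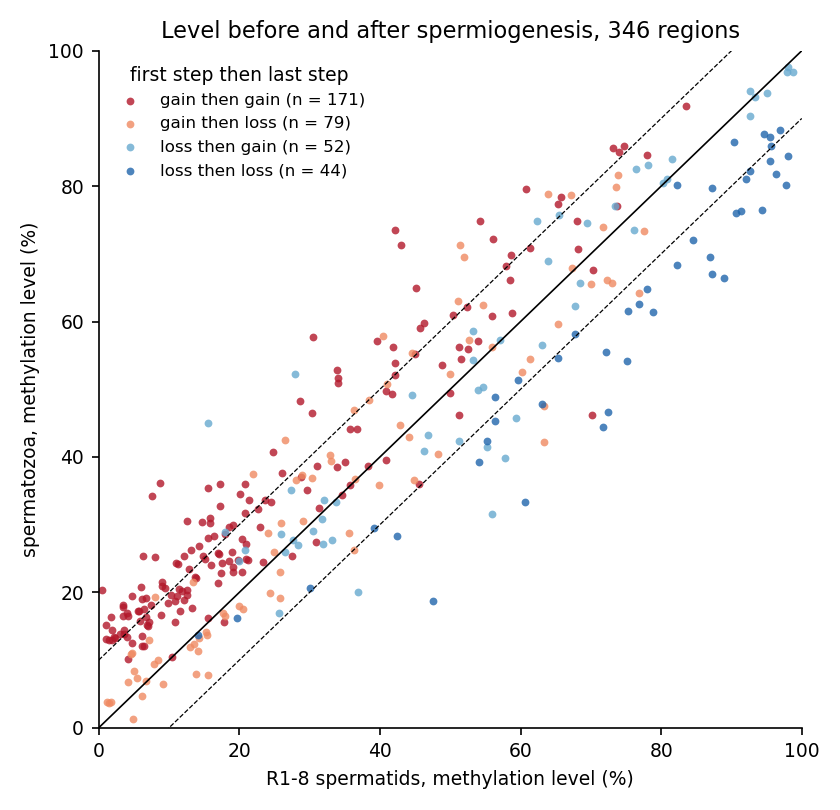
Methylation level in R1-8 spermatids (x axis, %) and in spermatozoa (y axis, %) of the 346 regions, each point 1 region as an authors' stage mean, coloured by the direction of the first and last step. The solid line marks equal levels and the dashed lines a difference of 10 points; 207 points lie between the dashed lines, 100 above and 39 below.

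Net differences went with the starting level. Of the 125 regions under 20% in R1-8, 107 were higher and 17 lower in spermatozoa, with medians of 10.4% and 17.8%, a median net difference of 8.6 points and 54 net gains against 0 net losses. Of the 32 regions over 80%, 5 were higher and 27 lower, the medians were 92.6% and 82.95%, and there were 0 net gains and 14 net losses. The 189 regions between 20% and 80% held 46 net gains and 25 net losses around a median of 3.3 points. A level near 0% leaves no room for a loss of 10 points and one near 100% none for a gain, so the bands could not have given all outcomes. Intermediate levels were common: 54.6% of the 346 regions lay between 20% and 80% in R1-8, against 24.2% of the other 3376 regions of the first list, and 67.9% did in spermatozoa, against 59.8% of the other 1345 regions of the last list. From below 50% to above it went 20 regions, and 18 went the other way.

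Gains were the more frequent direction at both steps. Of the 346 regions, 250 (72.3%) gained methylation from R1-8 to R9-12, where 66.8% of the whole list gained and 33.2% lost. From R15-17 to spermatozoa 223 (64.5%) gained, where 61.9% of that list gained and 38.1% lost. Of the 250 first-step gains 171 (68.4%) gained again at the last step, and of the 96 first-step losses 44 (45.8%) lost again, so that 215 regions (62.1%) took the same direction at both steps and 131 (37.9%) opposite ones. No stage is shared by these 2 steps, and both directions were used to choose the regions, so the counts are a description.

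Regions that gained at both steps, 171 in all, returned in between. Their medians were 18.5% in R1-8, 35% in R9-12, 19.2% in R13-14 (135 regions), 12.2% in R15-17 and 27.9% in spermatozoa. In 139 (81.3%) the spermatozoa level lay between those of R1-8 and R9-12, in 22 above both and in 10 below both. The median net difference was 9.9 points, and 84 had a net gain, 86 a return and 1 a net loss. Thus gaining at least 10 points at each of 2 steps left these regions with a median net difference under 10 points, as the median level was lower at R15-17 than at R9-12.

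The 44 regions that lost at both steps mirrored this course at high levels. Medians ran from 78.45% in R1-8 to 60.1% in R9-12, 73.0% in R13-14 (27 regions), 83.95% in R15-17 and 63.7% in spermatozoa. The median net difference was -13.4 points, with 30 net losses, 14 returns and 0 net gains, and all 44 were lower in spermatozoa than in R1-8. In 32 (72.7%) the spermatozoa level lay between those of R1-8 and R9-12, and in 12 it was below both.

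Opposite steps brought regions back. The 79 regions that gained first and lost last had medians of 29.0%, 50.1%, 30.6% (53 regions), 56.7% and 36.6% from R1-8 to spermatozoa, and 65 of them returned to within 10 points. The 52 that lost first and gained last had medians of 54.95%, 35.05%, 58.45% (24 regions), 32.3% and 50.1%, and 42 returned. Their median net differences were 1.5 and -0.4 points.

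**Figure D2:**
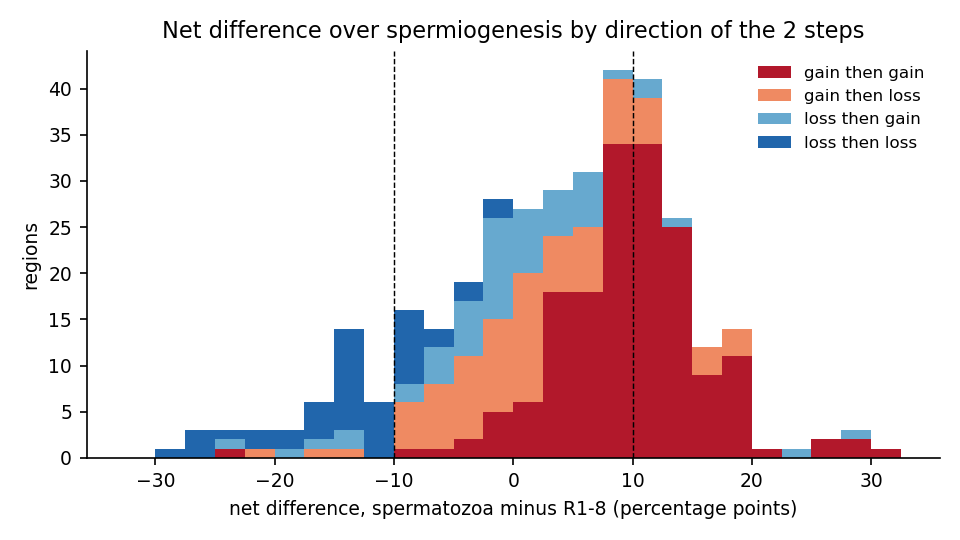
Number of regions (y axis) by net difference, spermatozoa minus R1-8, in percentage points (x axis), stacked by the direction of the first and last step, with dashed lines at -10 and 10 points. Of the 100 regions beyond the right line 84 gained at both steps, and of the 39 beyond the left line 30 lost at both, while the 207 between the lines come from all 4 classes, 86 of them from regions that gained at both steps.

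The levels of the stages between show how far each was from spermatozoa. The median absolute distance to the spermatozoa level was 8.35 points for R1-8, 9.15 for R9-12 and 8.7 for R13-14 (239 regions). For R15-17 it was 14.95 points, and there the rule itself required at least 10. Among the 239 regions with all 5 levels, R9-12 was nearest to spermatozoa in 92 (38.5%), R1-8 in 81 (33.9%) and R13-14 in 66 (27.6%). As a description over regions, which share samples and libraries, Spearman's correlation with the spermatozoa level was 0.92 for R1-8, 0.82 for R9-12, 0.91 for R13-14 and 0.75 for R15-17, over 346 regions and for R13-14 over 239.

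Not all regions had been listed at the steps between. The R9-12 to R13-14 list held 177 of the 346 regions, the R13-14 to R15-17 list 118, both held 56 and neither held 107. An R13-14 level therefore exists only where the region also changed on one side of that stage.

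The 56 regions listed at all 4 steps mostly alternated. In 32 the order was gain, loss, gain, loss, with medians of 27.7%, 48.35%, 21.75%, 57.15% and 33.55%, and their net differences ran from -21.2 to 19.9 points around a median of 1.95. In 13 it was loss, gain, loss, gain, with medians of 63.9%, 47.1%, 72.7%, 44.2% and 68.9% and a median net difference of -1.2 points. In 7 a gain was followed by 2 losses and a gain, from a median of 51.3% over 87.2%, 61.5% and 26.1% to 46.2%. The remaining 4 had 3 other orders. Neighbouring steps share a stage, so a stage that is high or low in a region gives 2 steps of opposite sign there.

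**Figure D3:**
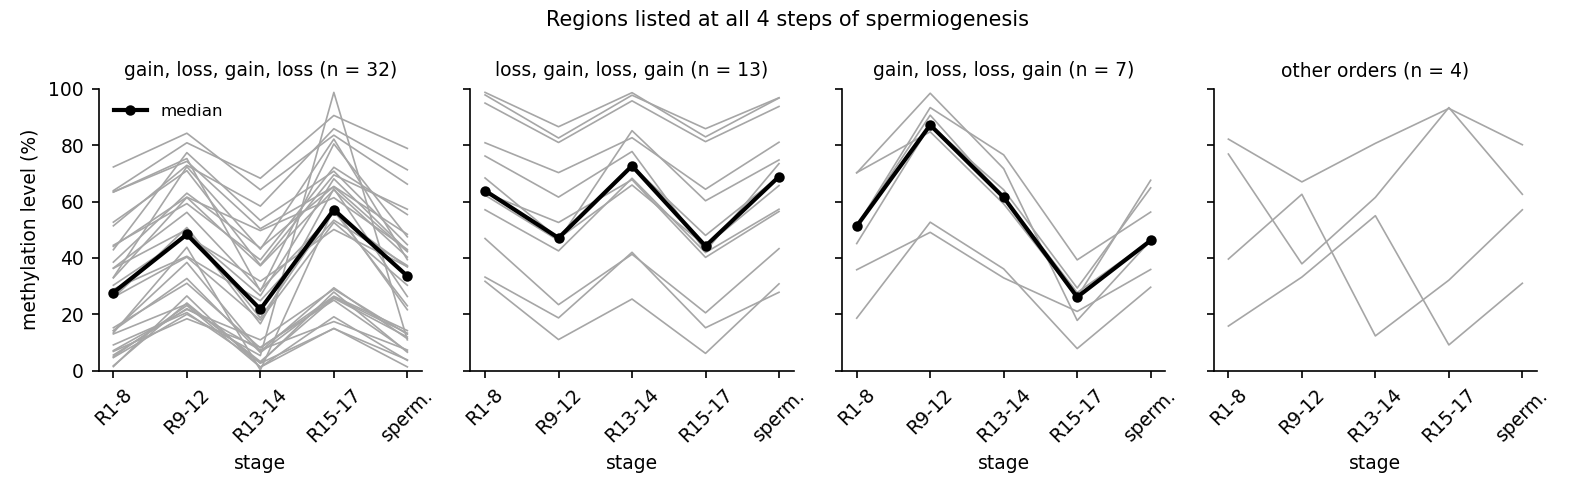
Methylation level (y axis, %) over the 5 stages (x axis) of the 56 regions listed at all 4 steps, in panels by the order of gains and losses, with thin lines for single regions and a thick line for the median. R9-12 and R15-17 are the high stages in the first panel of 32 regions and the low stages in the second panel of 13, and in both the spermatozoa median is near that of R1-8.

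The 3 widest ranges of levels were those of short regions with no gene annotation and R15-17 as an extreme stage, and these regions were chosen after their values were seen. A region with 5 CpGs on chromosome 9 (chr9:44789228-44789318) was at 4.6%, 20%, 5.3%, 98.8% and 10.9% from R1-8 to spermatozoa. One with 5 CpGs on chromosome 14 (chr14:10624496-10624541) was at 8.0%, 18.9%, 7.5%, 100% and 19.3%. In the opposite direction, 6 CpGs on chromosome 6 (chr6:11580838-11580904) were at 70.2%, 98.5%, 71.7%, 17.8% and 46.2%. Each is 1 stage mean far from its neighbours in order, and whether it holds in every sample of R15-17 was not analysed here.

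The highest and the lowest net difference of the 346 also lay in regions with no gene annotation. The highest, 31.3 points, was on chromosome 11 (chr11:75855768-75855930), where 5 CpGs were at 42.2%, 76.7%, 80.4%, 21.5% and 73.5%. The lowest, -28.9 points, was on chromosome 14 (chr14:81339814-81339846), where 8 CpGs were at 47.6% in R1-8, 27.6% in R9-12, 47.5% in R15-17 and 18.7% in spermatozoa.

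Genes were assigned by the authors' annotation, which covers the regions they had grouped. Of the 346 regions 94 lay in a gene or at its ends, 159 were grouped outside genes and 93 were in no group and so carry no annotation. Among the 94, 60 (63.8%) were in introns, 19 (20.2%) in exons, 7 (7.45%) in promoters, 5 at transcription termination sites, 3 in 3′ UTRs and 0 in 5′ UTRs. In the other annotated regions of the spermatid lists the shares were 64.8% for introns, 18.8% for exons and 8.48% for promoters. A symbol was found for 85 of the 94, in 84 genes, and 55 of the 85 were higher and 30 lower in spermatozoa than in R1-8. Median net differences were 2.55 points in introns, 6.2 in exons, 10.9 in promoters and 6.3 in grouped regions outside genes.

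**Figure D4:**
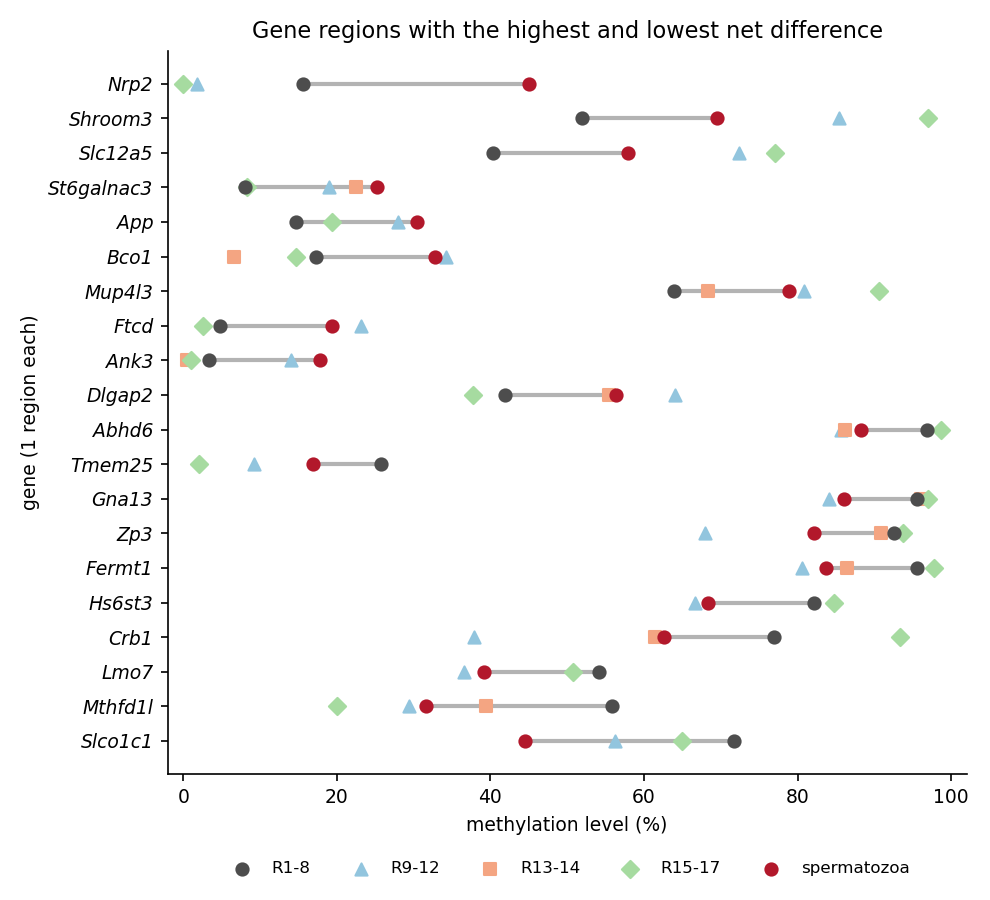
Methylation level (x axis, %) at each listed stage of the regions with the highest and lowest net difference among those annotated to a gene with a symbol (y axis), with a grey bar from R1-8 to spermatozoa. Nrp2 at the top went from 15.6% to 45% and Slco1c1 at the bottom from 71.7% to 44.5%, while R15-17 (diamonds) often lay outside the bar.

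Nrp2 had the highest net difference of any gene region. Neuropilin 2 is a receptor of semaphorins and vascular growth factors that guides axons. Its region in intron 1 of 16 (chr9:69498866-69498939, 7 CpGs) was at 15.6% in R1-8, 1.8% in R9-12, 0.0% in R15-17 and 45% in spermatozoa, a net difference of 29.4 points. It fell at the first step and rose by 45 points at the last, with adjusted p-values of 2.67e-02 and 1.07e-03 in the authors' deposited table. The net difference thus rests on the last step, the one in which the extraction kit also differs.

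Shroom3 and Slc12a5 were highest at R15-17. Shroom3 constricts the apical actin of epithelial cells, and its region in intron 9 of 10 (chr14:16627401-16627555, 10 CpGs) was at 51.9%, 85.4%, 97.0% and 69.5% in R1-8, R9-12, R15-17 and spermatozoa, 17.6 points above its start. Before birth it had been at 35.2% at GD16, 3.3% at GD18 and 4.8% at GD20, and it was at 37.3% at PND5. Slc12a5, the potassium chloride cotransporter of neurons, had in exon 14 of 26 (chr3:161452663-161452713, 5 CpGs) 40.4%, 72.4%, 77.0% and 57.9%, a net difference of 17.5 points. Mup4l3, of the major urinary protein family, took a like course in intron 5 of 5 (chr5:77690183-77690294), with 63.9%, 80.9%, 68.3% at R13-14, 90.6% and 78.9%. This family has near-identical copies, and no source used here says how reads that map to several of them were counted.

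Other gene regions rose at both steps, mostly from a low level. St6galnac3, a sialyltransferase, was at 8.0%, 19%, 22.5%, 8.3% and 25.3% from R1-8 to spermatozoa in intron 1 of 10 (chr2:260689748-260689865). Bco1, which cleaves beta-carotene, was at 17.3%, 34.2%, 6.6%, 14.7% and 32.8% in intron 5 of 10 (chr19:49650464-49650628). Ank3, whose product ankyrin-G anchors channels at the axon initial segment, was at 3.4%, 14.1%, 0.5%, 1.0% and 17.8% in intron 1 of 45 (chr20:20204900-20205026). Spermatozoa were the highest stage of St6galnac3 and Ank3, and R9-12 that of Bco1. Ftcd, an enzyme of histidine breakdown, was at 4.8%, 23.2%, 2.6% and 19.4% in exon 5 of 14, with no R13-14 level. Dlgap2, a postsynaptic scaffold, started higher, with 41.9%, 64.1%, 55.4%, 37.8% and 56.3% in intron 1 of 15. An exon 15 of 20 on chromosome 19 (chr19:24418199-24418250), of a transcript with no symbol in the gene table, went from 15.5% over 45.3%, 15.9% and 15.1% to 35.4%.

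Net losses were led by Slco1c1, a thyroid hormone transporter of the blood-brain barrier. Its region in exon 14 of 15 (chr4:175773464-175773582, 5 CpGs) was at 71.7% in R1-8, 56.2% in R9-12, 65.0% in R15-17 and 44.5% in spermatozoa, a net difference of -27.2 points. In the authors' deposited table the adjusted p was 2.08e-02 at the first step and 7.42e-03 at the last. At PND5 this region had been at 47.6%, nearer to the spermatozoa than to the R1-8 level.

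Mthfd1l, a mitochondrial enzyme of folate-dependent one-carbon metabolism, differed by -24.3 points although it gained at the last step. Its region in intron 20 of 27 (chr1:40633859-40633977, 7 CpGs) was at 55.9%, 29.4%, 39.4%, 20% and 31.6% from R1-8 to spermatozoa. All later stages were below R1-8. Crb1, which sets epithelial polarity in the retina, swung most among gene regions with a net loss. In intron 8 of 11 (chr13:56314125-56314256, 9 CpGs) it was at 76.9%, 37.9%, 61.5%, 93.4% and 62.6%, with adjusted p-values of 3.43e-11 and 2.67e-10 in the authors' deposited table for the first and last step.

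Lmo7, Hs6st3 and Zp3 lost at both steps and recovered in between. Lmo7, a LIM domain protein of cell junctions, was at 54.1%, 36.6%, 50.7% and 39.2% in R1-8, R9-12, R15-17 and spermatozoa, over 19 CpGs of exon 10 of 31. Hs6st3, a heparan sulfate sulfotransferase, was at 82.2%, 66.6%, 84.7% and 68.3% over 15 CpGs of its intron 1 of 1. Zp3, a glycoprotein of the egg coat, was at 92.6%, 67.9%, 90.9% at R13-14, 93.7% and 82.2% in intron 7 of 7. In all 3 genes R1-8 and R15-17 were the pair of high stages and R9-12 the lowest. Gna13, a G protein subunit, and Abhd6, a hydrolase of monoacylglycerols, moved alike near full methylation, from 95.6% to 86.0% and from 96.9% to 88.3%, net differences of -9.6 and -8.6 points. Tmem25 differed in course, with 25.7%, 9.2%, 2.1% and 16.9%, a loss and then a gain. An intron 3 of 6 on chromosome 7 (chr7:75555210-75555284), of a transcript without a symbol, went from 39.2% over 19.1% and 57.7% to 29.5%. One further region with a net difference of -9.7 points carries a symbol whose gene lies on another chromosome in GRCr8, and it is not named.

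Some genes changed much and ended where they began. Mc5r, a melanocortin receptor, was at 42.9%, 77.4%, 53.3%, 70.8% and 44.7% in its 3′ UTR (chr18:64117500-64117637), a first step of 34.5 points and a net difference of 1.8. Abcc10, an ABC transporter, went from 1.4% over 26.5%, 1.2% and 19.1% to 3.6% at its transcription termination site. Myo18a, an unconventional myosin, followed the same course from 1.7% over 24.0%, 2.6% and 14.9% to 3.8% in intron 1 of 45. In these 3 regions the high stages were R9-12 and R15-17. Msantd3 shared this order from 14.2% to 13.3% in exon 2 of 3, over 15 CpGs, with 32.7%, 6.4% and 26.0% in between. Pheta2, an adaptor of endosomal trafficking, went from 29.0% over 45.6% and 50.0% to 30.6% in its promoter.

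Returns from the other side were seen in Clstn1 and Mapre2. Clstn1, a calsyntenin, was at 69.5%, 46.4%, 40.4% and 74.5% in R1-8, R9-12, R15-17 and spermatozoa, in intron 1 of 16. Mapre2, which binds the growing ends of microtubules, was at 31.7%, 11%, 25.4%, 6.1% and 30.8% in intron 3 of 6. Galm, which interconverts forms of galactose, gained at both steps and still ended 5.0 points from its start, at 19.8%, 35.9%, 23.0%, 14.0% and 24.8%.

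Among gene regions listed at all 4 steps, Loxhd1 had the widest range of levels, 63.0 points. Loxhd1 is needed in the stereocilia of cochlear hair cells, and its region in intron 4 of 39 (chr18:73675371-73675455, 5 CpGs) was at 51.3%, 90.7%, 61.5%, 27.7% and 46.2%. Crb1 followed with 55.5 points, and Syn3, a synapsin of synaptic vesicles, with 39.0 points. Syn3 was at 62.3%, 46.2%, 85.2%, 60.3% and 74.8% in intron 5 of 12, and R13-14 was its highest stage. Bhmt, which remethylates homocysteine, was at 28.9%, 40.6%, 24.8%, 53.4% and 37.3% in intron 2 of 7.

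Promoters and first exons together held 11 of the regions, of which 9 were higher in spermatozoa, 5 by more than 10 points, and 1 (Fermt1) was lower by more than 10. Of all 346 regions, 228 were higher, 28.9% by more than 10 points, and 11.3% were lower by more than 10. With 11 regions, no trait of promoters is read from these counts. The highest of the 11 was the promoter of a transcript without a symbol on chromosome 6 (chr6:72805707-72805845, 6 CpGs), at 7.6%, 20.6%, 4.5%, 12.4% and 34.3%, a net difference of 26.7 points. Rpl37l1, named for its likeness to a ribosomal protein, was at 51.1%, 83.6%, 72.8%, 82.8% and 63.0% in exon 1 of 1 (chr10:64336259-64336433, 11 CpGs), after 97.2% at PND5. Ribosomal protein genes have many copies, and here too the treatment of reads that map to several is unknown. Krt72, a keratin of the hair follicle, and Rabepk, a Rab effector, complete the promoters and were named after their values were seen. Krt72 was at 3.6%, 20.8%, 4.1%, 2.8% and 14.5% and Rabepk at 10.9%, 24.2%, 3.9%, 2.6% and 15.6%. In Krt72, Rabepk and Abhd14a, R9-12 was the highest stage and spermatozoa the next.

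Of 17 gene lists, 6 had a gene with a member region. The lists are not complete, so each count holds for the listed genes only. Members in none of them include the synaptic vesicle genes Syn3 and Sv2a, the cation channel gene Trpm4 and Ak7, an adenylate kinase of cilia. Sv2a, Trpm4 and Ak7 were named after their values were seen. Over all genes annotated in the spermatid lists, 84 of 2162 (3.89%) had one. In the list of synapse and axon guidance genes it was 3 of 48 (6.25%), Nrp2, Dlgap2 and Magi2. All 3 were higher in spermatozoa, Magi2 by only 1.5 points, where 55 of all 85 regions with a symbol were higher. Magi2, a synaptic scaffold, was at 8.5%, 21.5%, 20.7% and 10% in R1-8, R9-12, R15-17 and spermatozoa. Solute carriers had 4 of 65 (6.15%), and besides Slc12a5 and Slco1c1 these were the zinc transporters Slc39a11, from 2.3% to 13.2%, and Slc39a2, from 12.5% to 19.6%. Magi2 and both zinc transporters were named after their values were seen. The cadherin list had 2 of 18 (11.1%), Clstn1 and Cdh10, a cell adhesion gene at 4.2%, 17.0%, 1.8%, 5.0% and 16.5% over 15 CpGs of its 3′ UTR.

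The remaining lists with a member had 1 gene each. Spag16, of the central apparatus of the sperm axoneme, stood for 1 of 9 axoneme and sperm tail genes, at 1.9%, 21.3%, 12.9%, 0.3% and 14.4% in intron 4 of 8 (chr9:77438818-77439021). Kcnk9, a leak potassium channel, stood for 1 of 35 listed ion channel genes (2.86%). Its region at the transcription termination site was at 58.6%, 72.8%, 54.8%, 52.8% and 69.8%. Lmx1b, a LIM homeodomain factor of limb and kidney, stood for 1 of 26 developmental transcription factors (3.85%), at 95.0%, 81.0%, 95.8%, 81.3% and 93.8%. No member region lay in the 7 germline and piRNA genes, the 7 spermatid chromatin and acrosome genes, the 6 DNA methylation genes or the 12 histone-modifying enzymes with any region in the spermatid lists. The same held for 18 Wnt, BMP and TGF-beta genes, 7 stem cell genes, 9 olfactory or vomeronasal receptors and 1 imprinted gene. Markers of other testis cells were also without a member (0 of 2 Sertoli, 0 of 1 Leydig and peritubular, 0 of 3 blood and endothelial genes). With a share of 3.89% over all annotated genes, lists of this size can easily hold none. Nothing is therefore read from these zeros, and the 93 regions without annotation could not be counted.

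Pairs of nearby regions were rare. Ctu1, a tRNA-thiolating enzyme, held 2 regions in exon 2 of 3 that share 3 bp, and they were the only pair within 1000 bp. They went from 3.0% to 13.8% and from 6.5% to 12.1%, and both gained at both steps. Because they overlap, they are not independent. A transcript without a symbol on chromosome 2 held 3 regions, with net differences of 7.9, 2.5 and 4.5 points.

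A pair of regions without annotation lay between annotated regions of the same intron. The one in intron 2 of 5 of Maml3 (chr2:140835819-140835948), a coactivator of Notch, was at 39.6%, 62.6%, 12.3%, 32.1% and 57.1%, a net difference of 17.5 points. The other, in intron 3 of 13 of Phactr1 (chr17:23344072-23344478), a regulator of phosphatase and actin, was at 22.6%, 41.0%, 9.3% and 32.3% in R1-8, R9-12, R15-17 and spermatozoa.

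Compared with the other 9103 regions of the spermatid lists, the 346 had a lower median length and a higher median CpG density. The median length was 203 bp against 293 bp, the median number of CpGs 7 against 8, and the median density 3.74 against 2.96 CpGs per 100 bp. Chromosome X held 10 of them (2.89%) and unplaced scaffolds 9 (2.6%), against 2.0% and 1.35%. The 10 X-linked regions had medians of 14.7% in R1-8, 23.2% in R9-12, 7.1% in R15-17 and 22.9% in spermatozoa. Their net differences ran from -5.9 to 19.9 points, with 4 net gains and 0 net losses. Of all 346 regions, 28.9% had a net gain and 11.3% a net loss, so 10 regions are too few to set X apart. Single X-linked regions reached higher levels, up to 60.9% at R9-12 (chrX:74371729-74371806).

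The authors sorted many spermatid regions into numbered clusters, which took in 44.2% of the 346 and 69.7% of the others. Cluster 4 held 24.0% of the 346 and 14.2% of the others, while the shares were 12.4% and 24.8% for cluster 3, 4.62% and 12.1% for cluster 7, and 3.18% and 18.6% for cluster 8. The 83 regions of cluster 4 were low, with medians of 14.1%, 26.0%, 10.9% (58 regions), 11.2% and 23.0%. Cluster 3, with 43 regions, was lower still, at 4.8%, 20.1%, 1.9% (37 regions), 2.5% and 15%. Cluster 7, with 16, was at the upper end, at 95.55%, 82.25%, 95.5% (12 regions), 94.35% and 87.45%. In all 3 clusters the median moved one way at R9-12, back by R13-14, and the same way again in spermatozoa, to a smaller extent than at R9-12. No test was made of these shares, since clusters were formed on the same levels.

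Levels from before meiosis, which the rule did not use, exist for 117 of the regions through the GD20 to PND5 list. Their median was 13.6% in GD20 gonocytes and 63.7% in PND5 spermatogonia, whereas all 46665 regions of that list had 48.3% and 96.5%, and the other 3749 spermatid regions in it 34.1% and 92.5%. At PND5 single regions ran from 34.8% to 98.5%, and the median was 63.9% in R1-8 and 65.7% in spermatozoa. Of the 117, 57 were within 10 points of PND5 in R1-8, and 57 in spermatozoa.

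The net classes differed in which end was nearer to PND5. The 31 regions with a net gain had a median of 57.8% at PND5, 50.4% in R1-8 and 63.0% in spermatozoa, so that the median difference from PND5 was -16.6 points in R1-8 and 0.6 points in spermatozoa. The 21 regions with a net loss had 71.0%, 82.2% and 66.4%, with median differences of 3.1 and -11.1 points. The 65 returning regions had 67.3%, 67.8% and 65.7%, with -2.6 and -3.6 points. R1-8 and spermatozoa levels define these classes, so the distance of each end from PND5 is not independent of the class, and no test was made. Only regions of the authors' GD20 to PND5 list enter here, so a change at that step was required. All 117 rose at that step, and the smallest rises were alike in size. Among them were rises from 16.6% to 46.9% (chr2:145937636-145937727), 14.5% to 44.9% (chr18:47722280-47722682) and 9.8% to 40.4% (chr14:87233337-87233593). All 3 are far above 10 points, so that list may have a higher limit of its own, which was not analysed here. The rise to PND5 is therefore not read as a trait of these regions.

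**Figure D5:**
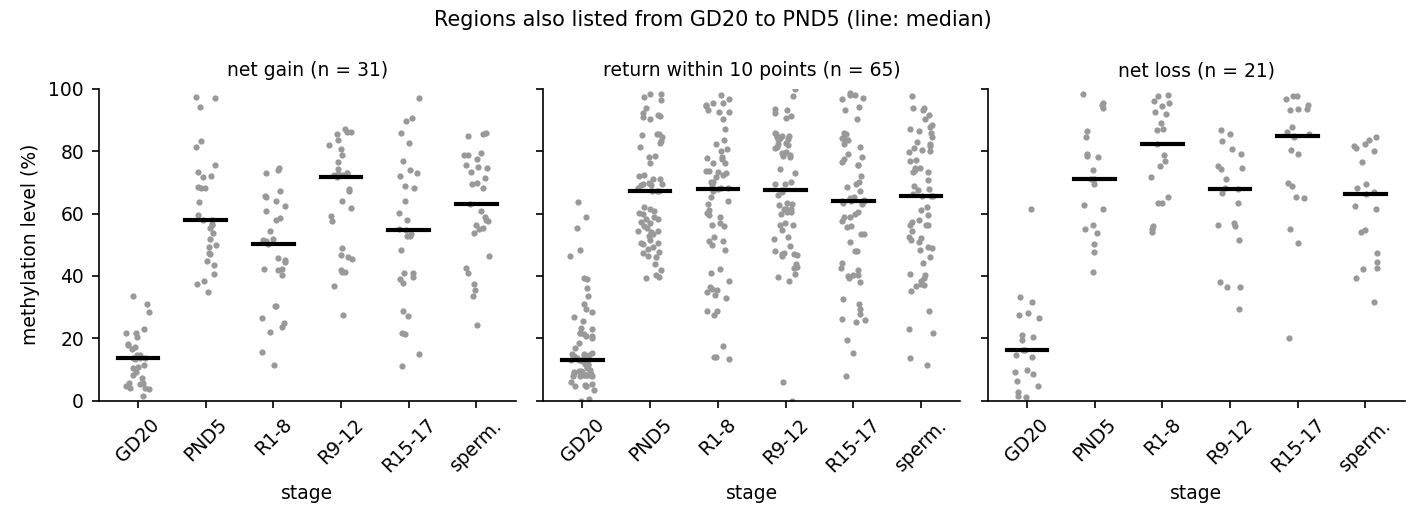
Methylation level (y axis, %) by stage (x axis) of the 117 regions also listed from GD20 to PND5, in panels by net class, with 1 point for each region and a line at the median. From GD20 to PND5 all panels rise from medians under 20% to medians between 57.8% and 71.0%, and R1-8 lies below PND5 in the net gain panel and above it in the net loss panel.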

How the data were processed

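Captured bisulfite libraries of 36 samples were aligned with Bowtie2 and Bismark 0.19.0, per the submitters' processing notes (genome build, coverage minimum, depth and the way of combining samples: not given in the sources used here). Per the file headers, the authors' lists hold a fraction for each region and stage (mean methylation over its CpGs), a score that is the difference of both fractions, and the p-value of their two-sample test with its adjusted value. No column holds per-sample values (0 without a sample). Fractions were multiplied to percent, and differences taken as later minus earlier stage. Starts in the deposited annotation are 1 bp above those of the lists and were matched accordingly.

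Matching and summaries used Python 3.11.15 with pandas 2.3.3 and numpy 2.4.6, and were tested on simulated data. Everything is a description, since both comparisons chose the regions. Named gene regions were the 12 highest and 12 lowest net differences, the 8 largest first steps with a net difference within 5 points, the 8 widest ranges among regions in all 4 lists, 2 per gene list, and 5 in promoters or first exons. Members and gene lists were chosen with earlier results of these data known. Alternatives changed the region identity, size, adjusted p, CpGs, length, net limit and chromosome X.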

Additional observations from a re-analysis of the deposited data

How the results depend on the processing

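The number of regions depended on the threshold of listing: 103 had 15 points or more in both comparisons, and 125 an adjusted p of at most 0.01 in both in the authors' deposited table, with 37 net gains, 16 net losses and 72 returns. With a net limit of 5 points there were 169 net gains, 69 net losses and 108 returns, and with a limit of 20 points 8, 10 and 328, so that net losses then outnumbered net gains. An overlap of at least 1 bp gave 351 pairs, a length of at least 50 bp 338 regions, and at least 5 CpGs the same 346, since every listed region has them. The median net difference was 4.95 or 5 points under every alternative run for it, chromosome X left out included.

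No paired analysis was possible because the deposited values are stage means without samples; for the same reason no leave-one-out values exist. Kit and stage cannot be told apart in spermatozoa. Short regions rest on as few as 5 CpGs, and the depth behind each level is unknown.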
